A study of Rattus norvegicus with 24 samples.

Results

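The response of the colonic epithelium to a high-fat diet was compared between rats born as controls and rats born with intra-uterine growth retardation (IUGR), in which growth in the womb is restricted. The measure described here is the interaction of birth status with diet, which is the diet response in IUGR rats minus the diet response in control rats. All rats were Sprague Dawley and 8 months old. The 4 groups were controls on chow (CND), controls on a high-fat diet (CHFD), IUGR rats on chow (RND) and IUGR rats on a high-fat diet (RHFD). All 24 arrays of the series entered the comparison, 6 per group. Arrays of a group that share a title number were averaged first, so 20 samples were compared: 6 CND, 5 CHFD, 6 RND and 3 RHFD. The labels do not say whether a shared title number means the same rat, how growth was restricted, or what the diet contained. They also do not say whether the samples of a group came from separate litters, so p-values here measure the spread between these samples.

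The colon is lined by absorptive cells, mucus-secreting goblet cells, hormone-secreting enteroendocrine cells and tuft cells, which are renewed from stem cells in the crypts. Immune cells lie between and beneath these cells and come off in part with an epithelial preparation. Poor growth before birth is studied as a state that can alter how tissues handle diet in adult life, and the interaction asks directly whether it did so for each transcript.

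Epithelial markers were high in every sample. The 10 measured genes of a list of 13 had mean log2 levels between 11.83 and 12.64 in the 20 samples, and their median interaction was 0.04. None of 8 markers of enteric neurons and glia was measured above the detection filter, which asks that 6 or more arrays have a detection p-value below 0.05. Of 20 markers of T and natural killer cells 14 passed that filter. Each array detected between 8303 and 9872 of 22523 probes. Averaged arrays were close to each other: the SD of their log2 differences was 0.25 to 0.28. That SD was 0.38 to 0.70 in the 32 other pairs within a group whose arrays lay on different chips, as the averaged arrays did. Each group had 3 arrays on each of 2 chips. In CND the chip 1 samples carry the letter A and the chip 2 samples the letter B, and there the effects of chip and of letter cannot be told apart.

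The diet responses of control and IUGR rats could not be told apart for any single gene at the threshold used, an adjusted p under 0.05. Of 10193 probes tested with limma, which cover 7345 named genes, 0 passed for the interaction (0%), and the smallest adjusted p was 0.942. At an unadjusted p under 0.05 there were 420 probes (4.12%), of which 226 lay above 0 (2.22%) and 194 below (1.9%). The smallest unadjusted p was 0.000325. This share is no higher than a comparison without any difference gives on average.

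A missed threshold does not show that the responses were alike, and the intervals say how large a difference in fitted levels could have gone unseen. The interaction had a median standard error of 0.26 and a median 95% half-width of 0.54 on the log2 scale, with quartiles of 0.45 and 0.68. For 7732 probes (75.9%) the whole 95% interval lay within 1 log2 unit of 0 on either side, which is a 2-fold difference in response. For the other probes a difference above 2-fold remained within the interval. The 7732 probes include some near background, such as Nts, described below, which was not detected on the chow arrays. Levels of an undetected probe are bounds only, so for such probes the interval does not limit the difference in RNA. The estimate itself passed 1 log2 unit for 126 probes, 89 upward and 37 downward. Over all tested probes 47.4% of the interaction estimates lay above 0.

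Both diet responses themselves gave calls. In control rats 116 probes passed the threshold (1.14%), 82 higher on the high-fat diet (0.804%) and 34 lower (0.334%). In IUGR rats 43 passed (0.422%), 23 higher (0.226%) and 20 lower (0.196%). RHFD had 3 samples, and the median standard error was 0.20 in IUGR rats and 0.17 in controls. The order of the counts depended on the fit, since array weights gave 280 calls in IUGR rats. In controls the count fell to 61 with median scaling and to 5 on chip 2 alone. With 1 sample left out the count in IUGR rats ranged from 8 without RHFD 25B to 59 without CHFD 4A. A total of 23 probes passed in both, which is 19.8% of the control list and 53.5% of the IUGR list, and all 23 had the same direction, 16 higher and 7 lower. Of the 93 probes past the threshold in controls alone, 91 had the same sign in IUGR rats, and of the 20 in IUGR rats alone, 18 had the same sign in controls. Across all 10193 probes the diet responses, which share no sample, had a Pearson correlation of 0.53 and a total least squares slope of 1.09. That slope is the main axis of the cloud of points and not a regression of one response on the other. Probes share the libraries and the chip term, so this correlation describes the arrays and carries no p. On chip 1 alone it was 0.16.

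**Figure D1:**
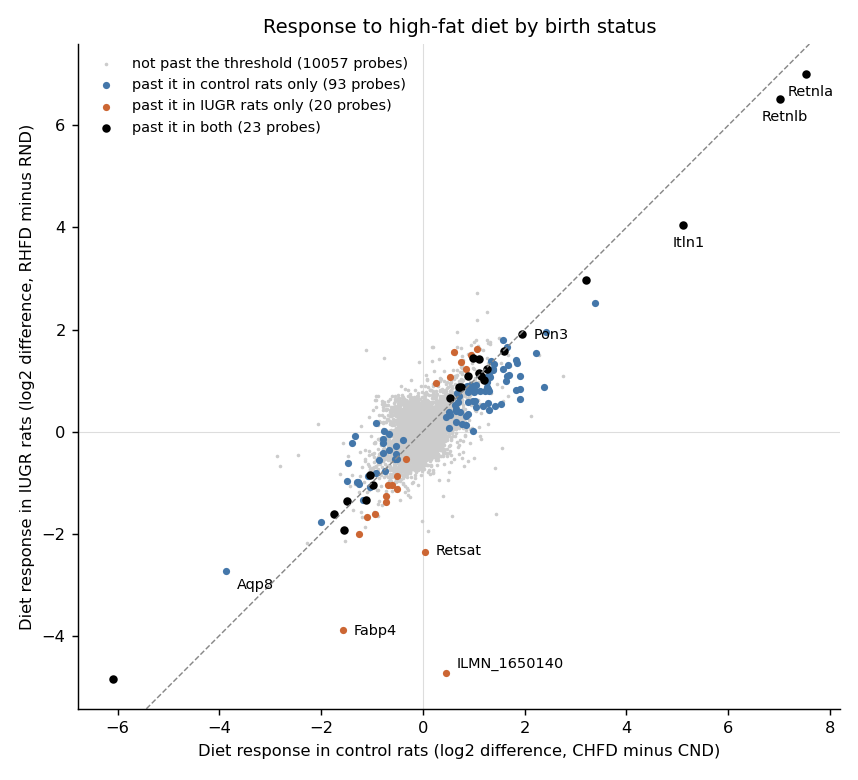
Log2 difference between high-fat diet and chow in control rats (horizontal axis) and in IUGR rats (vertical axis), 1 point per probe, coloured by the comparison in which a probe passed an adjusted p under 0.05. The 23 probes past the threshold in both lie near the dashed line of equal response, while Retsat, Fabp4 and the unnamed probe ILMN_1650140 lie well below it.

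Retnla and Retnlb had the largest shared responses, of similar size in both birth statuses. Retnla and its neighbour Retnlb, whose products are resistin-like proteins secreted by the gut lining, and Itln1, a lectin for sugars on microbes, rose on the high-fat diet in control and in IUGR rats. Pon3, a lactonase, and Nts, the precursor of the gut hormone neurotensin, also rose in both. Rbp2, a retinol carrier of absorptive cells, Gstm5, a glutathione transferase, and Slc14a2, a urea transporter, fell in both.

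Since Retnla and Retnlb rose together in both birth statuses, their promoters are shown. Both are on the minus strand of GRCr8 chromosome 11, with 21.8 kb between the windows. The sequences are RefSeq promoter windows of 300 bases, at chr11:65426137-65426436 and chr11:65448270-65448569. The Retnla window lies within the span given below for the gene, and the Retnlb window reaches across its gene's outer end. Capitals mark matches on either strand to any of 3 short motifs that were searched: TGAGTCA, a motif of AP-1 factors, then GATAAG, a motif of the GATA family, and TATAAA, the core promoter box of that name.
Retnla: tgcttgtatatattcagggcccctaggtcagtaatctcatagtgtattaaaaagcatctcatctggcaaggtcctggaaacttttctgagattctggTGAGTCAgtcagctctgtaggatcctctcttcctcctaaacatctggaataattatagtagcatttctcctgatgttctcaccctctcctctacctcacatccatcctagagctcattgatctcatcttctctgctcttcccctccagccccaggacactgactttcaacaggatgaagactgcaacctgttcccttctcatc
Retnlb: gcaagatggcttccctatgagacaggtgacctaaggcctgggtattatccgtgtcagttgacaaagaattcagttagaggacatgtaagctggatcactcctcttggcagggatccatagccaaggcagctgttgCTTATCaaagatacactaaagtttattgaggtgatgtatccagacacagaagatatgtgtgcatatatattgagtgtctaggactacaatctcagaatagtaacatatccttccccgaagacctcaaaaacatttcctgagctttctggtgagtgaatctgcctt
The Retnla window held 1 match to TGAGTCA, which 4.53% of all 27457 promoter windows of this length hold on either strand. The Retnlb window held 1 match to GATAAG, read on the other strand as CTTATC, which 6.91% of all windows hold. Neither window held TATAAA (14.3% of all windows), so the pair shared none of the 3 motifs, and the motifs do not overlap one another here. A match describes letters in the window and not a bound factor.

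Retnla (probe ILMN_1362534, GRCr8 chromosome 11, 65424685 to 65426484) had levels in CND of 4.70 to 6.67 (median 5.24), and in CHFD 11.89, 12.79, 13.18, 13.26 and 13.86. In RND its levels were 4.48 to 8.63 (median 5.53), and in RHFD 12.49, 12.99 and 14.27. All high-fat samples of both birth statuses lay far above all chow samples, and in RND the samples 37B and 39B stood above the other 4. The diet response was 7.53 (SE 0.66, limma adjusted p = 1.76e-06) in controls and 7.0 (SE 0.77, adjusted p = 0.000104) in IUGR rats. Their difference was -0.52, with a 95% interval of -2.65 to 1.61, so the interval holds both a much smaller and a much larger response in IUGR rats.

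Retnlb (probe ILMN_1365931, chromosome 11, 65446433 to 65448319), a goblet cell product, was at 4.30 to 4.79 in CND (median 4.46) and at 11.53, 11.54, 11.71 and 12.85 in 4 CHFD samples and 10 in CHFD 10B. It was at 4.32 to 6.75 in RND (median 4.39) and at 10.19, 11.38 and 13.42 in RHFD. The diets did not overlap in either birth status, and the 2 RND samples with raised Retnla, 37B and 39B, were also those with raised Retnlb. The response was 7.02 in controls (adjusted p = 8.66e-07) and 6.51 in IUGR rats (adjusted p = 4.29e-05), an interaction of -0.50 (-2.30 to 1.30). It was detected on 0 of 6 CND arrays and on 2 of 6 RND arrays. In controls it was therefore at least 102-fold higher on the high-fat diet, comparing the CHFD mean with the lowest detected signal of the CND arrays. Retnla and Retnlb are paralogs, and cross-binding of their probes was not tested.

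Itln1 (probe ILMN_1349778, chromosome 13, 86464641 to 86490655) was at 7.71 to 10.61 in CND (median 8.23) and at 13.30, 13.83, 14.02, 14.27 and 14.37 in CHFD. In RND it was at 7.79 to 12.27 (median 9.92), and in RHFD at 13.64, 13.84 and 14.41. The high-fat groups were nearly level with each other, and the chow groups overlapped, with RND 37B the highest chow sample. The response was 5.12 in controls (SE 0.61, adjusted p = 0.000167) and 4.04 in IUGR rats (SE 0.71, adjusted p = 0.015), an interaction of -1.08 (-3.04 to 0.88). The call in IUGR rats was lost without RHFD 21B (adjusted p = 0.0503), 25B (0.104) or 3A (0.0696).

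Pon3 (probe ILMN_1356386, chromosome 4, 34323546 to 34350244) gave the tightest of the large shared responses. Its levels were 9.11 to 10.51 in CND (median 9.80), 10.98 to 12.18 in CHFD, 9.21 to 10.37 in RND (median 9.91) and 11.62, 11.82 and 11.95 in RHFD. Both high-fat groups lay above both chow groups. The response was 1.96 in controls (adjusted p = 0.000309) and 1.92 in IUGR rats (adjusted p = 0.00388), and the interaction of -0.04 had an interval of -0.83 to 0.75. For Pon3 the data thus set a difference in response above 2-fold outside the 95% interval. Gstm5 behaved alike in the other direction, with a response of -0.97 in controls (adjusted p = 0.00441) and -1.04 in IUGR rats (adjusted p = 0.015) and an interaction of -0.07 (-0.58 to 0.44).

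Nts and Slc14a2 were near the detection limit in one diet. Nts, a marker of enteroendocrine cells, was detected on 0 arrays of both chow groups and on all high-fat arrays, and was at least 2.29-fold higher in CHFD and at least 2.47-fold higher in RHFD. Its fitted response was 1.60 in controls (adjusted p = 0.00341) and 1.58 in IUGR rats (adjusted p = 0.0219), with an interaction of -0.02 (-0.83 to 0.80). Slc14a2 was detected on 0 arrays of both high-fat groups. It was at least 2.23-fold lower in CHFD (adjusted p = 0.00184) and at least 2.11-fold lower in RHFD (adjusted p = 0.0219), and its interaction was 0.13 (-0.57 to 0.83). Without background correction the responses of Nts were 0.63 in both birth statuses, and that of Slc14a2 in IUGR rats was -0.50; both calls in IUGR rats then missed the threshold (adjusted p = 0.0711 for each).

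Among the other shared genes, Fcer1g, an immune receptor chain, rose by 1.27 and 1.23 (interaction -0.04), C1qa, a complement gene of macrophages, by 1.10 and 1.43 (0.32), and Rassf5, a regulator of lymphocyte adhesion, by 1.15 and 1.09 (-0.05), in controls and IUGR rats respectively. Rbp2 had differences of -1.74 and -1.61 (0.13), Cyp2d5, a drug-metabolizing enzyme, -1.56 and -1.92 (-0.37), and Agmat, an agmatinase, -1.04 and -0.86 (0.18). All of these passed the threshold in both birth statuses in the main fit. Without background correction the IUGR calls of Rbp2 (limma adjusted p = 0.0808), Cyp2d5 (0.0917), Rassf5 (0.0711), Agmat (0.0711) and C1qa (0.0525) missed the threshold. The same 5 IUGR calls also missed it on the authors' values (0.0537 to 0.089) and with offset 50 (0.0511 to 0.0662). Over the 23 probes past it in both, interactions ranged from -1.08 to 1.25, 0 had an unadjusted p under 0.05, and 14 had the whole interval within 1 log2 unit of 0. Calls of a set of genes and probes, not all of them described here, were followed in the 20 fits that left out 1 sample. Of 26 IUGR diet calls in this set, those of Retnla, Retnlb, Pon3 and Fabp4 held whichever 1 sample was left out. Each of the other 22 missed the threshold without at least 1 of the 3 RHFD samples. Of 32 such calls in controls, 16 held whichever 1 sample was left out. In controls the call of C1qa was lost in 12 of these 20 fits and that of Cyp2d5 in 5. C1qa also missed the threshold there without background correction (limma adjusted p = 0.132) and with array weights (0.068). In IUGR rats the calls of C1qa and Rassf5 were each lost in 12 fits.

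**Figure D2:**
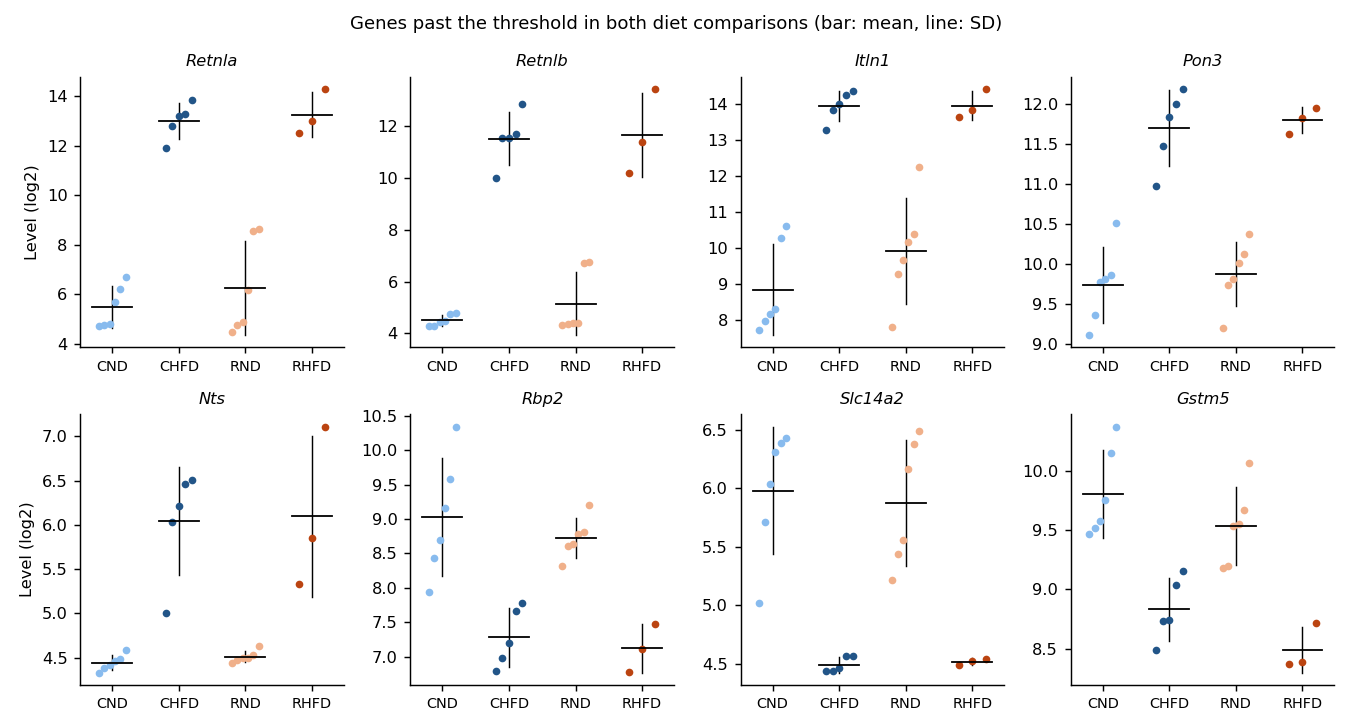
Log2 levels (vertical axis) of 8 genes past the threshold in both diet comparisons, 1 point per sample in CND, CHFD, RND and RHFD, with the group mean as a bar and the SD as a line. The diet groups separate in the same direction in control and IUGR rats for each gene, and RND 37B and 39B give the 2 raised chow values of Retnla and Retnlb.

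The genes with the smallest interaction p-values followed a crossed pattern, in which the diet difference had opposite signs in control and IUGR rats. Of the 24 genes with the smallest p, 12 in each direction and none past the threshold, 22 had opposite signs of the diet response. The 12 with a negative interaction included class I genes of the major histocompatibility complex (RT1-S2 and RT1-A1), the B cell receptor chain Cd79b and the retinol saturase gene Retsat. The 12 with a positive interaction included Abca1, the cholesterol exporter, Klf9, a transcription factor induced by glucocorticoids, and Cd47, a surface signal that restrains phagocytes. All 12 negative genes had a lower mean in RHFD than in CHFD, and 10 had a higher mean in RND than in CND. All 12 positive genes were the reverse on both diets. A small interaction p favours crossed patterns by construction, so these counts describe the selection.

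Vps52 (probe ILMN_1359731, chromosome 20, 4922599 to 4933458), a subunit of a complex that returns vesicles to the Golgi, had the smallest p. Its levels were 5.65 to 6.59 in CND (median 6.21), and 6.21, 6.51, 6.65, 6.82 and 7.12 in CHFD. They were 6.41 to 7.78 in RND (median 7.05) and 5.86, 6.09 and 6.51 in RHFD. The diet groups overlapped in both birth statuses, with means that moved apart in opposite directions. The differences were 0.49 in controls (adjusted p = 0.372) and -0.95 in IUGR rats (adjusted p = 0.0981), and the interaction was -1.44 (-2.13 to -0.75, unadjusted p = 0.000325 and adjusted p = 0.942 by limma). It was -1.55 on chip 1 and -1.29 on chip 2.

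RT1-S2 and RT1-A1 encode class I molecules, which present peptides from inside the cell to T cells. RT1-S2 (probe ILMN_1368215, chromosome 20, 2655054 to 2664895) was at 5.39, 5.78, 6.06, 6.61 and 6.66 in 5 CND samples and at 9.79 in CND 38B. In CHFD it was at 6.30, 6.51, 6.78 and 7.29 in 4 samples and at 9.09 in 4A. In RND it was at 8.48 to 9.23 in all 6 samples (median 8.82), and in RHFD at 6.17, 6.43 and 6.93. The levels thus fell into a low and a high range with no sample between 7.29 and 8.48. The high range held every RND sample, 1 CND sample and 1 CHFD sample, and no RHFD sample. The interaction was -2.79 (-4.29 to -1.29, unadjusted p = 0.000953), not past the threshold with all samples. It passed without CND 38B (-3.32, adjusted p = 0.00548) and on chip 1 alone (-3.01, adjusted p = 0.00132), where neither CND 38B nor CHFD 4A was measured, and was -2.43 on chip 2.

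RT1-A1 (probe ILMN_1351487, chromosome 20, 4907139 to 4910798) had a similar split. It was at 9.58 to 10.98 in 5 CND samples and at 12.75 in 38B, and at 10.20, 10.60 and 10.65 in 3 CHFD samples, 11.96 in 4A and 12.32 in 28B. In RND it was at 11.69 to 12.91 (median 12.05), and in RHFD at 10.35, 10.52 and 10.52. All RND samples lay above all RHFD samples, and CND 38B and CHFD 4A again lay with RND. CHFD 28B also lay with RND here, whereas it was in the low range of RT1-S2, at 6.51. The interaction was -2.23 (-3.56 to -0.90, unadjusted p = 0.00233), with -2.82 on chip 1 and -1.47 on chip 2.

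A probe with no gene symbol in the platform's table, ILMN_1650140, was singled out after its values were seen because its interaction was the largest in size of all 10193 probes. It was at 9.59 to 10.11 in all 6 RND samples, at 10.32 in CND 38B and at 10.52 in CHFD 4A. In the remaining 12 samples it was between 4.63 and 5.43. The samples in its high range were the same 8 as those of RT1-S2. The interaction was -5.19 (-8.06 to -2.32, unadjusted p = 0.00122), with -4.95 on either chip taken alone. ILMN_1650140 fell by 4.74 in IUGR rats (adjusted p = 0.0495) and differed by 0.45 in controls, and the IUGR call was lost in 15 of the 20 fits that left out 1 sample (adjusted p = 0.0514 to 0.239). Class I genes form a multigene family that varies between individual rats, and whether these probes bind all family members alike was not tested. With 1 CND and 1 CHFD sample in it, the high range was not confined to RND.

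The wider class I list, with its peptide-loading genes, moved less. Of 15 measured genes 14 had a negative interaction, and RT1-A2 (0.41) was above 0. Outside the list, RT1-CE2 (0.23), RT1-T24-4 (0.19) and RT1-A3 (0.14) were also above 0. The list had a median of -0.33 beside -0.02 over all probes. The sign of that median turned with the chip, at -0.97 on chip 1 alone and 0.06 on chip 2 alone. Tap1, a peptide transporter, had an interaction of -0.58 (-1.22 to 0.07) and Tapbp, its partner in loading, -0.53 (-1.20 to 0.14). The median diet difference was 0.48 in controls and 0.00 in IUGR rats.

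Class II genes, which present peptides taken up from outside the cell, had the most negative median of any list with at least 4 measured genes when all arrays were used. Over 7 genes the median diet difference was 1.64 in controls and 0.64 in IUGR rats, and the median interaction was -1.02, with -1.47 on chip 1 alone and -0.19 on chip 2 alone. In controls 4 of the 7 rose (0.804% over all probes), and in IUGR rats none passed (0.226%). RT1-Ba was at 4.87 to 6.57 in CND (median 5.91), at 6.91 to 8.24 in CHFD, at 5.95 to 7.72 in RND (median 7.09) and at 7.14, 8.17 and 8.23 in RHFD. The CHFD and RHFD groups covered the same range, while RND overlapped both diets. RT1-Ba rose by 1.83 in controls (adjusted p = 0.00927) and differed by 0.81 in IUGR rats (adjusted p = 0.515), and its interaction was -1.02 (-2.08 to 0.04).

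RT1-Db1 (1.90 in controls, 0.64 in IUGR rats, interaction -1.26) and RT1-Da (1.90, 0.84 and -1.06) had the same shape, and passed in controls only. The call of RT1-Db1 was lost without any 1 of CHFD 10B, 22B and 8B and CND 14A, 18A and 20A (adjusted p = 0.0547 to 0.0766). The call of RT1-Da in controls missed the threshold when either of 2 CHFD samples was left out, 22B (adjusted p = 0.0564) or 8B (0.0622). RT1-DMb, which helps load class II molecules, was at 6.64 to 7.52 in CND and at 7.96 to 8.93 in RND, with no overlap, and its interaction was -1.20 (-2.02 to -0.38, unadjusted p = 0.00625). Interactions lay below 0 for 5 of the 7 class II genes and above it for 2. RT1-DMa (0.27) and RT1-DOa (0.31) were above 0. RT1-DMa differed by -0.77 in controls and by -0.50 in IUGR rats. No interaction of a class II gene passed the threshold.

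Markers of macrophages and dendritic cells and of T and natural killer cells had positive median diet differences, as the class II genes did. Macrophage and dendritic cell markers had median diet differences of 1.27 in controls and 1.32 in IUGR rats over 9 genes, with a median interaction of 0.03, which was -0.51 on chip 1 alone and 0.55 on chip 2 alone. T and natural killer cell markers had 1.46 and 1.11 over 14 genes, with a median interaction of -0.28 and 12 of 14 below 0. That median was -1.34 on chip 1 alone and 0.85 on chip 2 alone, so its sign also turned with the chip. In controls 6 of the 14 rose (0.804% over all probes), among them Ptprcap by 1.92 (adjusted p = 0.0134) and Nkg7, a cytotoxic granule gene, by 1.69 (adjusted p = 0.0264), and in IUGR rats none passed (0.226%). The call of Nkg7 was lost without any 1 of CHFD 10B, 4A and 8B and CND 14A, 18A, 20A and 36B (adjusted p = 0.0502 to 0.0834), and with median scaling (0.0983), no filter (0.0911) or no chip term (0.0624). The mean level of the T cell list was 5.11 to 6.09 in CND, 6.39 to 8.49 in CHFD, 5.50 to 7.13 in RND and 7.07 to 7.49 in RHFD. Its part in the class II values was not tested. In these bulk preparations, more cells of a type and more RNA per cell cannot be told apart.

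Cd79b (probe ILMN_1354836, chromosome 10, 91739134 to 91742312), part of the B cell receptor, was low throughout. It was at 4.43 to 4.99 in CND (median 4.70) and at 4.93, 5.33, 5.46, 5.82 and 6.09 in CHFD. It was at 4.79 to 6.51 in RND (median 5.45) and at 4.70, 4.89 and 4.95 in RHFD. CHFD and RND were the higher groups, each overlapping its diet partner at its lowest sample. The interaction was -1.48 (-2.22 to -0.75, unadjusted p = 0.000446). Of 10 B and plasma cell markers 4 were measured, with interactions from -1.48 for Cd79b itself to -0.11. Their median diet difference was 0.46 in controls and -0.12 in IUGR rats. Ltb, a lymphotoxin gene of lymphocytes, rose by 0.99 in controls (adjusted p = 0.0264) and was level in IUGR rats (0.01), an interaction of -0.98 (-1.67 to -0.28). The call of Ltb was lost without any 1 of CHFD 10B, 22B and 8B and CND 14A, 18A, 20A and 36B (adjusted p = 0.0519 to 0.0724). It was also lost without background correction, on the authors' values, with median scaling, offset 50, no filter or the random block (0.0512 to 0.0765).

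**Figure D3:**
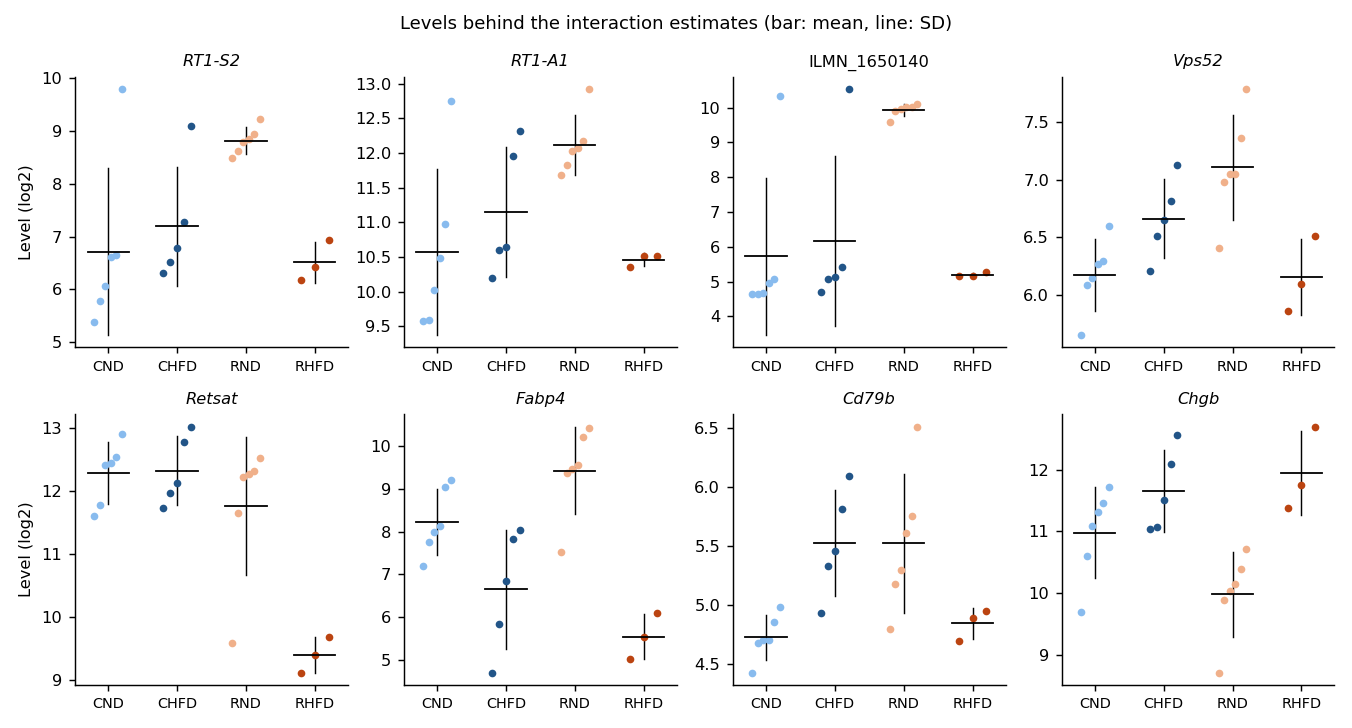
Log2 levels (vertical axis) of 7 genes and 1 unnamed probe in CND, CHFD, RND and RHFD, 1 point per sample, with the group mean as a bar and the SD as a line. RT1-S2 and ILMN_1650140 show all 6 RND samples, CND 38B and CHFD 4A in a high range, and Retsat shows the 3 RHFD samples and RND 33B in a low range.

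Retsat and Fabp4, genes of vitamin A and fatty acid handling, passed the diet threshold in IUGR rats and missed it in controls, and the difference itself did not pass for either. Retsat (probe ILMN_1356474, chromosome 4, 106211459 to 106220222), which saturates retinol, was at 11.61 to 12.91 in CND (median 12.42), and at 11.72, 11.97, 12.13, 12.77 and 13.02 in CHFD. In RND it was at 11.65 to 12.52 in 5 samples and at 9.59 in 33B, and in RHFD at 9.12, 9.41 and 9.69. The 3 RHFD samples and RND 33B lay about 2 log2 units or more below every other sample. The diet difference was 0.04 in controls (adjusted p = 0.984), and in IUGR rats Retsat fell by 2.35 (SE 0.47, adjusted p = 0.0297). The interaction of -2.40 (-3.69 to -1.11, unadjusted p = 0.000971) was not past the threshold, and passed without RND 33B (-2.84, adjusted p = 0.012). It was -2.20 on chip 1 and -2.54 on chip 2. The diet call in IUGR rats was lost without any 1 of the RHFD samples 21B (adjusted p = 0.0571), 25B (0.126) and 3A (0.184). It was lost too without any 1 of the RND samples 17B (0.0548), 19B (0.0568), 35B (0.0737) and 37B (0.0627). The same call missed the threshold without background correction (0.0635), on the authors' values (0.0604), with offset 50 (0.0524), with no filter (0.0976) and on chip 1 alone (0.264).

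The other retinoid genes did not follow Retsat as a group. Over 13 measured genes the median interaction was -0.04, and 2 had an unadjusted p under 0.05, Retsat and the retinoid receptor Rxra (-0.61, -1.21 to -0.01). Bco1, which cleaves carotene to retinal, fell by 1.12 in IUGR rats (adjusted p = 0.0435), differed by -0.50 in controls (adjusted p = 0.328) and had an interaction of -0.62 (-1.28 to 0.04). The IUGR call of Bco1 was lost in 12 of the 20 fits that left out 1 sample (limma adjusted p = 0.0507 to 0.236). It was also lost without background correction (0.0635), on the authors' values (0.0604), with offset 50 (0.0604), no filter (0.11) or no chip term (0.0747). Rbp2, described above, fell in both birth statuses.

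Fabp4 (probe ILMN_1376344, chromosome 2, 93488251 to 93492961), a fatty acid carrier of adipocytes, macrophages and endothelium, was at 7.20 to 9.22 in CND (median 8.07) and at 4.71, 5.85, 6.84, 7.83 and 8.03 in CHFD. It was at 7.53 to 10.41 in RND (median 9.52) and at 5.02, 5.53 and 6.09 in RHFD. The IUGR groups were separate, and the control groups overlapped over a wide range. Fabp4 fell by 3.88 in IUGR rats (SE 0.56, adjusted p = 0.00275) and differed by -1.58 in controls (SE 0.48, adjusted p = 0.127), an interaction of -2.31 (-3.84 to -0.77, unadjusted p = 0.0053). The call in IUGR rats missed the threshold on chip 1 alone (-3.36, adjusted p = 0.12), and was -4.41 on chip 2. Of 9 adipocyte markers 5 were measured, Fabp4 among them. Of the others, Adipoq, the adipocyte hormone adiponectin, had an interaction of 0.16 (-0.26 to 0.58) and was detected on 3 or fewer arrays in each group, and Cfd, an adipocyte protease, had 0.38 (-0.61 to 1.36). Cidea and Cidec, lipid droplet proteins, had -0.08 (-1.07 to 0.92) and -0.01 (-0.94 to 0.91). Their part in the Fabp4 values was not tested.

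Other lipid genes passed in IUGR rats with the same sign in controls. Apoe, a lipoprotein of macrophages and other cells, rose by 1.56 in IUGR rats (adjusted p = 0.0297) and differed by 0.60 in controls (adjusted p = 0.372). Its RHFD levels were 5.09, 6.82 and 7.21, against 4.46 to 5.18 in RND, so 2 of 3 samples carried the difference, and the call was lost without RHFD 25B (adjusted p = 0.191) or RHFD 3A (0.246) and without RND 17B, 19B, 35B or 37B (0.0548 to 0.0737). The interaction was 0.96 (0.10 to 1.82, unadjusted p = 0.0298). Dhcr7, the last enzyme of cholesterol synthesis, fell by 1.04 in IUGR rats (adjusted p = 0.0408) and differed by -0.69 in controls (adjusted p = 0.0855), with an interaction of -0.35 (-0.96 to 0.25). The IUGR call of Dhcr7 was lost in 10 of the 20 fits that left out 1 sample (limma adjusted p = 0.0507 to 0.302). It was also lost without background correction (0.0525), on the authors' values (0.0537) and with median scaling (0.11). Over 15 genes of cholesterol synthesis the median diet differences were -0.40 in controls and -0.45 in IUGR rats, and the median interaction was -0.06. The 28 genes of fatty acid oxidation had a median interaction of -0.05, and 22 of them had the whole interval within 1 log2 unit of 0.

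Drug-metabolizing enzymes had negative median responses in both birth statuses. Over 24 genes the median differences were -0.34 in controls and -0.36 in IUGR rats, with 3 and 4 lower past the threshold (0.334% and 0.196% over all probes). Cyp2c24 fell by 1.26 in IUGR rats (adjusted p = 0.015) and differed by -0.72 in controls (adjusted p = 0.0722). Ugt1a6, a drug-conjugating enzyme, fell by 0.87 in IUGR rats (adjusted p = 0.015) and differed by -0.50 in controls (adjusted p = 0.0665). The interactions of Cyp2c24 and Ugt1a6 were -0.54 (-1.15 to 0.07) and -0.37 (-0.79 to 0.05). Ces1d, a carboxylesterase, went the other way: it fell by 1.39 in controls (adjusted p = 0.0441) and differed by -0.23 in IUGR rats, an interaction of 1.16 (0.10 to 2.22, unadjusted p = 0.0337). The call of Ces1d was lost in 13 of the 20 fits that left out 1 sample (adjusted p = 0.0528 to 0.112).

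Innate defence genes were higher on the high-fat diet in controls more than in IUGR rats by their medians. Over 15 genes of antimicrobial defence and microbial sensing the median difference was 1.00 in controls and 0.30 in IUGR rats. Of these genes 4 and 3 were higher past the threshold (0.804% and 0.226% over all probes). The median interaction was -0.52. Interactions lay below 0 for 12 of the 15 genes and above it for 3, the highest at 0.92. Pigr, another gene of this list, went the other way by its group medians. From CND to CHFD its median level moved from 12.37 to 12.17, whereas from RND to RHFD it moved from 12.06 to 12.21. Tlr2, a receptor for bacterial lipoproteins, was at 5.09 to 5.88 in CND, at 5.29, 6.71, 6.97, 7.11 and 7.40 in CHFD, at 5.19 to 6.12 in RND and at 5.29, 5.85 and 5.96 in RHFD. Only CHFD stood apart, in 4 of its 5 samples, and the exception was 28B. The interaction was -1.29 (-2.21 to -0.38, unadjusted p = 0.00808). Duox2, which makes hydrogen peroxide at the epithelial surface, followed with -1.52 (-2.79 to -0.26, unadjusted p = 0.0203), and CHFD 28B was again the lowest CHFD sample. Reg3b, a secreted antibacterial lectin, had an interaction of -3.05 whose interval ran from -6.42 to 0.32, since its levels spanned 6.20 to 12.96 with every group overlapping.

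Il18, an epithelial cytokine, went against this direction. It was at 8.27 to 9.67 in CND (median 9.25), at 6.86, 7.32, 7.98, 8.44 and 8.53 in CHFD, at 7.88 to 9.31 in RND (median 8.56) and at 7.92, 8.45 and 8.77 in RHFD. CHFD was the lowest group, touching the lowest CND sample, and the IUGR groups overlapped. Il18 fell by 1.33 in controls (adjusted p = 0.0236) and differed by -0.09 in IUGR rats (adjusted p = 0.956), an interaction of 1.23 (0.32 to 2.14, unadjusted p = 0.0104). The call in controls missed the threshold without any 1 of the CHFD samples 22B (adjusted p = 0.0601), 28B (0.0571) and 8B (0.0782), or of the CND samples 14A (0.0604) and 18A (0.0579). Anpep, aminopeptidase N, rose by 0.86 in controls (adjusted p = 0.00441) and differed by 0.13 in IUGR rats. Its interaction was -0.72 (-1.18 to -0.27). Levels of Anpep were low, at 4.33 to 5.08 in CND, 5.29 to 5.57 in CHFD, 4.66 to 5.49 in RND and 4.91 to 5.25 in RHFD. The call in controls missed the threshold with 24 arrays and a random block (limma adjusted p = 0.0771) and on chip 2 alone (0.61).

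Granule genes of hormone-secreting cells had positive interaction estimates. Chga and Chgb, granule proteins of enteroendocrine cells, had diet differences of 0.18 and 0.67 in controls and of 1.38 and 1.96 in IUGR rats, none past the threshold. Chgb (probe ILMN_1359665, chromosome 3, 140496712 to 140510057) was at 9.70 to 11.73 in CND (median 11.20), at 11.03, 11.07, 11.51, 12.09 and 12.56 in CHFD, at 8.71 to 10.71 in RND (median 10.08) and at 11.38, 11.74 and 12.70 in RHFD. RND was the lowest group and lay wholly below RHFD, while the control groups overlapped. The interaction was 1.29 for Chgb (0.10 to 2.49, unadjusted p = 0.0356) and 1.20 for Chga (0.27 to 2.13, unadjusted p = 0.0145). Over 10 enteroendocrine genes the median interaction was 0.15, with 8 above 0, and it was 0.35 on chip 1 alone and -0.01 on chip 2 alone. Resp18, a neuroendocrine secretory protein, rose by 1.37 in IUGR rats (adjusted p = 0.00636) and differed by 0.76 in controls (adjusted p = 0.0508), an interaction of 0.62 (0.02 to 1.21). Dclk1, the marker kinase of tuft cells, rose by 1.62 in IUGR rats (adjusted p = 0.0307) and differed by 1.05 in controls (adjusted p = 0.0722), an interaction of 0.56 (-0.33 to 1.46), and 5 of 6 tuft cell genes were above 0. The tuft cell median was 0.38, with 0.83 on chip 1 alone and -0.01 on chip 2 alone. The IUGR call of Dclk1 was lost in 8 of the 20 fits that left out 1 sample (limma adjusted p = 0.0525 to 0.191). It was also lost without background correction (0.0525).

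**Figure D4:**
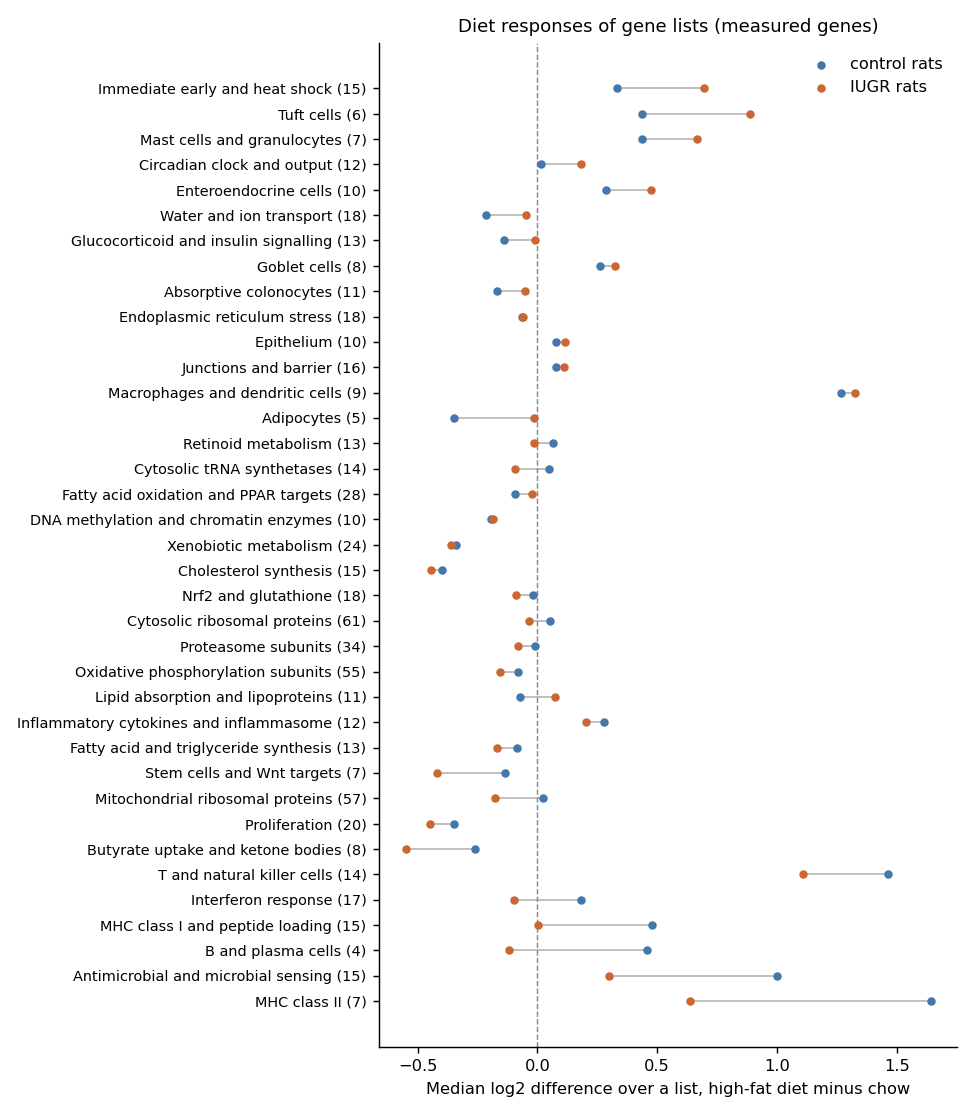
Median log2 difference between high-fat diet and chow (horizontal axis) in control rats (blue) and IUGR rats (orange) for each gene list with at least 4 measured genes, ordered by the median interaction. Class II, antimicrobial, B and plasma cell and class I lists lie at the bottom with a lower median in IUGR rats, and the macrophage list has nearly equal medians of 1.27 and 1.32.

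Genes of growth and energy metabolism had small median interactions. Mitochondrial ribosomal proteins had a median interaction of -0.21, with 48 of 57 below 0 and none past the threshold, and Mrps17 had the smallest p among them (-0.48, -0.93 to -0.03). Oxidative phosphorylation subunits had a median of -0.13 with 39 of 55 below 0, and 54 of the 55 had the whole interval within 1 log2 unit of 0. Cytosolic ribosomal proteins had -0.09 with 45 of 61 below 0. Proliferation genes had -0.26 with 17 of 20 below 0. Immediate early and heat shock genes, which respond quickly to handling and stress, had 0.50 with 13 of 15 above 0, and 1.59 on chip 1 alone and -0.13 on chip 2 alone. Their list mean reached 11.11 in the highest CHFD sample and 10.82 in the highest RHFD sample, against 8.36 to 8.84 in RND, and its part in other positive interactions was not tested. Beside these counts, 47.4% of all tested probes had an interaction above 0. Members of such lists share regulation and libraries, so a majority of one sign is no count of independent genes.

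Among the positive genes by p, Abca1 was at 4.38 to 4.82 in RND and at 5.08, 5.21 and 5.43 in RHFD, without overlap, and at 4.52 to 5.59 in CND and 4.53 to 4.78 in CHFD. It was detected on 4 CND, 1 CHFD, 2 RND and 6 RHFD arrays, so most of its levels lay near background. The interaction was 0.90 (0.39 to 1.41, unadjusted p = 0.00151). Cd47 was better measured, on all arrays, at 8.02 to 8.64 in RND and at 8.83, 8.90 and 8.97 in RHFD, above all CHFD samples (8.33 to 8.70). It differed by 0.59 in IUGR rats (adjusted p = 0.0611) and by 0.04 in controls, an interaction of 0.55 (0.17 to 0.92, unadjusted p = 0.00625).

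None of the remaining positive genes passed the threshold. Luc7l3, a splicing factor, had an interaction of 1.29 (0.54 to 2.04), Klf9 1.01 (0.35 to 1.67), Smarca4, the motor of a chromatin remodeller, 0.65 (0.22 to 1.07), and Cenpc, a centromere protein, 0.96 (0.36 to 1.55). Akap9, a kinase scaffold at the Golgi, fell by 0.93 in controls (adjusted p = 0.0264) and differed by 0.18 in IUGR rats. Its interaction was 1.10 (0.45 to 1.76), and 0.86 on its other probe. Its diet call in controls was lost in 6 of the 20 fits that left out 1 sample (adjusted p = 0.06 to 0.0818). The call was also lost without background correction (0.064), on the authors' values (0.0637) and with no filter (0.0757). The other positive genes were Naa15 (1.00), Cert1, the ceramide carrier (1.02), Rbm6 (0.70), Zfp622 (0.66) and Alg11, an enzyme of N-glycan assembly (0.53). The remaining negative genes were Nab1, a corepressor of early growth response factors (-1.88), Ripk3, the necroptosis kinase (-0.95), Slc48a1, a heme transporter (-0.88), Ramac (-0.74), Napg (-0.70) and Dcaf7 (-0.62). Unadjusted p ranged from 0.000325 to 0.00938 over all 24 genes.

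**Figure D5:**
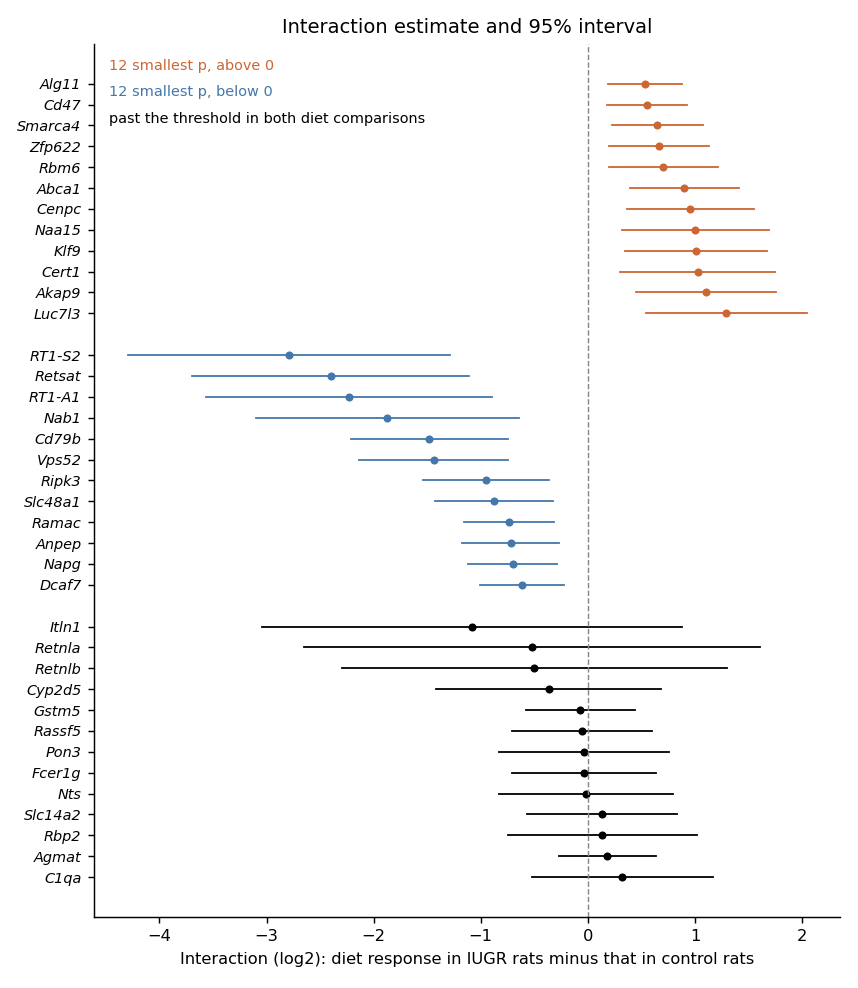
Interaction estimate and 95% interval (log2, horizontal axis) for the 12 genes with the smallest p above 0, the 12 below 0, and the 13 named genes past the threshold in both diet comparisons. Intervals of the shared genes all cross 0, with Pon3 at -0.04 and Gstm5 at -0.07, and RT1-S2 and Retsat have the most negative estimates of the plotted genes.

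Birth status on a single diet gave few calls. On chow 1 probe passed (0.00981%), for Acot5, an acyl-CoA thioesterase, which was higher in RND than in CND by 1.01 (adjusted p = 0.0334 by limma), and 1403 probes had an unadjusted p under 0.05 (13.8%). On the high-fat diet 0 passed (0%), and 113 had an unadjusted p under 0.05 (1.11%). The difference between CND and RND and that between CHFD and RHFD each enter the interaction with the diet responses, and share their samples. For Acot5 the call on chow was lost without any of CHFD 22B, CND 14A, 18A, 20A, 32B or 36B, RHFD 25B, RND 19B, 35B or 37B.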

How the data were processed

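Epithelial cells were shaken loose from proximal and distal colon in a calcium-free chelating buffer, and column-cleaned, DNase-treated RNA was labelled with biotin, per the labels' protocols. GenomeStudio is named in the submitters' processing notes, with no version or settings given there. Per the file headers, the deposited non-normalized table holds a signal intensity and a detection p-value for each of 22523 probes on each array. The deposited series matrix holds intensities normalized by the authors and served as an alternative only.

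Background correction and quantile normalization of the intensities used the function neqc of limma 3.58.1 (R 4.3.3, statmod 1.5.0; offset 16; control bead level derived from the deposited detection p-values), which turns the deposited intensities into log2 values. A probe was kept where 6 or more arrays had a detection p-value below 0.05. Arrays of one title number were averaged. A limma model with the 4 groups and the share of a sample's arrays on chip 2 was fitted to all tested probes, with Benjamini-Hochberg adjustment over 10193 probes in each of 5 comparisons, all two-sided. The procedure was tested on simulated data.

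Of the probes on the platform, 13793 have 1 gene symbol, 0 have several and 8730 have none. Positions are from RefSeq genes on GRCr8, and the build of the array design was not used here. A list uses 1 probe per gene, that with the highest mean level. Named genes were, by rule, those past the interaction threshold (none), the 12 of each sign with the smallest p, up to 8 per direction past both diet thresholds, up to 8 per birth status past 1 diet threshold with an unadjusted interaction p under 0.05, and up to 4 per list by interaction p. The genes, lists and tests were chosen with earlier results of these data known. A bound of the kind at least N-fold compares the brighter group's mean with the dimmer group's mean after raising each of its arrays to that array's lowest detected signal where the probe lay below it, and covers no sampling error. Precision is limited by how many arrays there are, and levels of different probes were not compared. There were 12 alternatives and 20 fits that left out 1 sample each.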

Additional observations from a re-analysis of the deposited data

Results flagged for a closer look

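In 291 groups of 5 or 6 samples, 21 values of 19 genes or probes stood apart from the rest of their group by Dixon's criterion for a single outlying sample. Chance flags about 1 in 20 groups, and which of these flags are of that kind was not tested.

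ILMN_1650140 was at 10.32 in CND 38B and at 10.52 in CHFD 4A, with the nearest samples of those groups at 5.08 and 5.43. RT1-S2 was at 9.79 in CND 38B, with the nearest CND sample at 6.66. All 3 values are above the highest RND sample of the same probe, at 10.11 for ILMN_1650140 and 9.23 for RT1-S2. Retsat was at 9.59 in RND 33B, with the nearest RND sample at 11.65, and this value lies within the RHFD range. Fabp4 was at 7.53 in RND 19B, and the nearest RND sample was at 9.37.

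RND 17B was the outlying sample for 5 genes: Epcam, an epithelial adhesion gene, at 12.71, Klf4 at 10.41, Acot1 at 5.97, Tm7sf2 at 7.63 and Slc48a1 at 5.93. RND 39B was high for Nab1 at 6.71 and Zfp622 at 6.96. CND 36B was high for Sgk1 at 13.27 and Rbm6 at 6.18. CND 18A was low for RT1-Da at 7.76 and Rassf5 at 5.36, and CND 32B was low for Klf4 at 11.52. In CHFD, Ptprcap was high in 8B at 9.90, Anpep was low in 28B at 5.29, Fcer1g was low in 22B at 8.44, and the unnamed probe ILMN_1370341 was low in 4A at 6.13. What sets these samples apart was not tested.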

How the results depend on the processing

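No paired analysis was possible because the groups share no title number. The random block below joins arrays of 1 sample and pairs no groups. Of 3101 interaction values of 97 genes or probes under up to 32 settings, 4 passed the threshold and 49 had the other sign, in 14 genes. The interaction count was 0 except on chip 1 alone (2: RT1-S2 and ILMN_1650140), and 0 to 1 when a sample was left out. The diet count in controls was 61 with median scaling, 57 with no filter and 5 on chip 2 alone, and 55 to 183 with a sample left out. In IUGR rats it was 19 without background correction, on the authors' values and with no filter, 28 with median scaling, 22 with offset 50, 90 with 24 arrays and a random block, 12 on chip 1 alone and 280 with array weights, and 8 to 59 with a sample left out. Birth status on chow gave 0 calls on the authors' values, with median scaling, offset 50, the random block or chip 2 alone, 2 with no filter, 3 on chip 1 alone and 7 with array weights, and 0 to 4 with a sample left out. On the high-fat diet it gave 1 with the random block (Retsat) and 1 on chip 2 alone (Retsat), and 0 to 1 with a sample left out. The correlation of the diet responses was 0.16 on chip 1 alone, and 0.43 to 0.60 with a sample left out. With no filter more probes are tested, and a chip alone holds fewer arrays; otherwise the cause was not tested.

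Interactions with the other sign were all uncalled. On chip 1 alone they were 0.50 for Retnla, 0.27 for Retnlb, 0.056 for Nts and -0.16 for C1qa. On chip 2 alone they were 0.11 for Pon3, 0.53 for Fcer1g, 0.49 for Rassf5, -0.24 for Slc14a2, -0.16 for Agmat, 0.26 for Ptprcap, 0.38 for Nkg7 and -0.15 for Dclk1. Array weights gave 0.40 for Nts and 0.13 for Gstm5. Nts was at 0.0036 without background correction, 0.0052 on the authors' values, 0.060 with median scaling and 0.023 with offset 50, and Fcer1g was at 0.040 without background correction, 0.038 on the authors' values and 0.0056 with offset 50. With a sample left out, ranges were -1.38 to 0.23 for Retnlb, -0.23 to 0.10 for Pon3, -0.52 to 0.36 for Nts, -0.18 to 0.11 for Fcer1g, -0.20 to 0.12 for Rassf5, -0.087 to 0.32 for Rbp2, -1.62e-05 to 0.30 for Slc14a2 and -0.18 to 0.034 for Gstm5. Nts was detected on no chow array and Slc14a2 on no high-fat array, so their values there are bounds only.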

Other observations

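A stretch of GRCr8 chromosome 20 from 2655054 to 4933458 starts with RT1-S2, ends with RT1-A1 and Vps52, and holds genes of the rat major histocompatibility complex. It was chosen after the values were seen and drawn around genes that include the 5 given below. That choice favours a higher share of small p-values inside it, so it is described without a test. It holds 84 tested probes with a gene, 58 of them with an interaction below 0, whereas 47.4% of all tested probes lay above 0. Its median interaction was -0.14, against -0.04 for the 178 probes on the rest of the chromosome. In the stretch 5 probes had an unadjusted p under 0.05 (5.95%), all negative, for RT1-S2, Ltb, RT1-DMb, RT1-A1 and Vps52, against 6 on the rest (3.37%) and 4.12% over all probes.

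Hbb, the haemoglobin chain of red blood cells, had an interaction of 2.13 with an interval of -1.08 to 5.34. Hbb levels were 5.44, 9.93 and 12 in the 3 RHFD samples and 7.16 to 12.84 in RND. Aqp8, a water channel of absorptive cells, fell by 3.86 in controls (limma adjusted p = 0.0125) and differed by -2.73 in IUGR rats (adjusted p = 0.193), an interaction of 1.13 (-1.21 to 3.47), with levels of 4.82 to 9.48 in CHFD and 5.15 to 8.32 in RHFD.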
